A study of Mus musculus with 8 samples.

Results

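The genes of de novo lipogenesis described here are Acly, Acaca, Fasn, Elovl6, Scd1, Scd2, Me1, Srebf1, Mlxipl and Thrsp. They were chosen by symbol, with earlier results of these data known. All 10 were found among the 18022 genes of the count table and passed the filter on low counts. RNA of mouse subcutaneous adipose tissue was sequenced in 8 libraries, each from its own mouse. In 4 of them, called WT, the genotype was Pkd1(flox/flox), and in the other 4, called KO, it was Pkd1adipo delta/delta, an adipocyte deletion of the gene that the study calls Pkd1 and whose symbol is Prkd1 (protein kinase D1). All mice were of the C57BL/6J strain after 4 back-crosses. For the Cre driver, the deleted exons, and the age, sex, diet and feeding state of the mice, the sources used here give nothing. The number after WT or KO is the replicate number of the title.

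De novo lipogenesis makes fatty acids from glucose and other carbon sources. Citrate exported from mitochondria is split by Acly (ATP citrate lyase) into acetyl-CoA, Acaca (acetyl-CoA carboxylase) turns this into malonyl-CoA, and Fasn (fatty acid synthase) builds palmitate from both with NADPH that comes in part from Me1 (cytosolic malic enzyme). Elovl6 lengthens palmitate to stearate, and the stearoyl-CoA desaturases Scd1 and Scd2 put in a double bond. Transcription of the pathway is driven by SREBP-1 (Srebf1), which responds to insulin, and by ChREBP (Mlxipl), which responds to carbohydrate; Thrsp (Spot 14) is a small protein that follows lipogenesis. In adipose tissue the pathway is known to rise with feeding and fall with fasting.

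The libraries held between 2617755 and 2873457 reads. Levels are given as TMM-scaled CPM, and spread as SD over the 4 libraries of a label. The 10 adipocyte markers summed to between 16497 and 22393 CPM in a library. Of 10 markers of mammary epithelium 1 was in the table, Krt19, with 0 to 28 reads. Prkd1 itself stood at 30.3 ± 3.22 CPM in WT and 31.6 ± 4.71 CPM in KO (SD, n = 4 each), with 72 to 94 and 71 to 108 reads, so that it showed no fall with the KO label and did not check the labels; counts over the whole gene include exons outside the deletion and cells other than adipocytes. Directions below therefore refer to libraries labelled KO against those labelled WT. The 10 skeletal muscle markers summed to 67.1 to 383 CPM in WT and to 283 to 2610 CPM in KO, with all 10 positive in log2 fold change (exact two-sided permutation p = 0.0571). The 7 lymphocyte markers summed to 67.5 to 131 CPM in WT and 43.4 to 62.4 CPM in KO (exact permutation p = 0.0286, the smallest that 4 against 4 can give). That sum was nearly all Ighm, an immunoglobulin heavy chain gene, with 60.2 to 122.6 CPM in WT and 38.6 to 56.7 CPM in KO; the other 6 markers had at most 10 reads in a library and did not pass the count filter. The 7 hepatocyte markers in the table summed to 1675.6 CPM in WT1 and 1450.0 CPM in WT4. In WT2 and WT3 they summed to 390.4 and 274.1 CPM, and in KO to 316.8 to 952.9 CPM (exact permutation p = 0.429). The part of the muscle, lymphocyte and hepatocyte markers in the results below was not tested.

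The lipogenic enzymes did not separate the labels, but 5 of them varied together from mouse to mouse. Fasn, Acly, Scd2, Elovl6 and Me1 were low in KO1 and KO3 and high in WT3 and KO4, with the highest library between 3.0 and 4.75 times the lowest. Scd1, the most abundant of the 10, differed by 1.35 times between its extremes. The regulators Srebf1 and Mlxipl showed no close relation with Fasn. In whole tissue, fewer cells of a type and less RNA per cell cannot be told apart.

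Fasn stood at 2527, 2728, 5362 and 4003 CPM in WT1 to WT4 and at 1466, 4397, 1940 and 6493 CPM in KO1 to KO4. The WT libraries thus lay within the range of the KO libraries, which held both the lowest and the highest value. Acly had 219.5, 222, 376 and 267 CPM in WT1 to WT4 and 108, 285, 179 and 493 CPM in KO1 to KO4. Its order over the 8 libraries was the same as that of Fasn. Scd2, a desaturase outside the liver that is best known from brain and fat, had 1630.1, 1658, 2505, and 2208 CPM in WT1 to WT4 and 736, 2212, 1149 and 3499 CPM in KO1 to KO4. That order was again the one of Fasn, and KO4 was 4.75 times KO1.

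Me1 had 414, 351, 583 and 405 CPM in WT1 to WT4 and 186.5, 442, 241.4 and 583 CPM in KO1 to KO4, with WT3 and KO4 side by side at the top. Elovl6, the least abundant of these enzymes, had 55.8, 48.2, 104 and 60.9 CPM in WT1 to WT4 and 35.3, 65.6, 34.5 and 101 CPM in KO1 to KO4. KO1 and KO3 lay below every WT library in each of Fasn, Acly, Scd2, Me1 and Elovl6, while KO4 lay above every WT library in Fasn, Acly and Scd2.

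**Figure D1:**
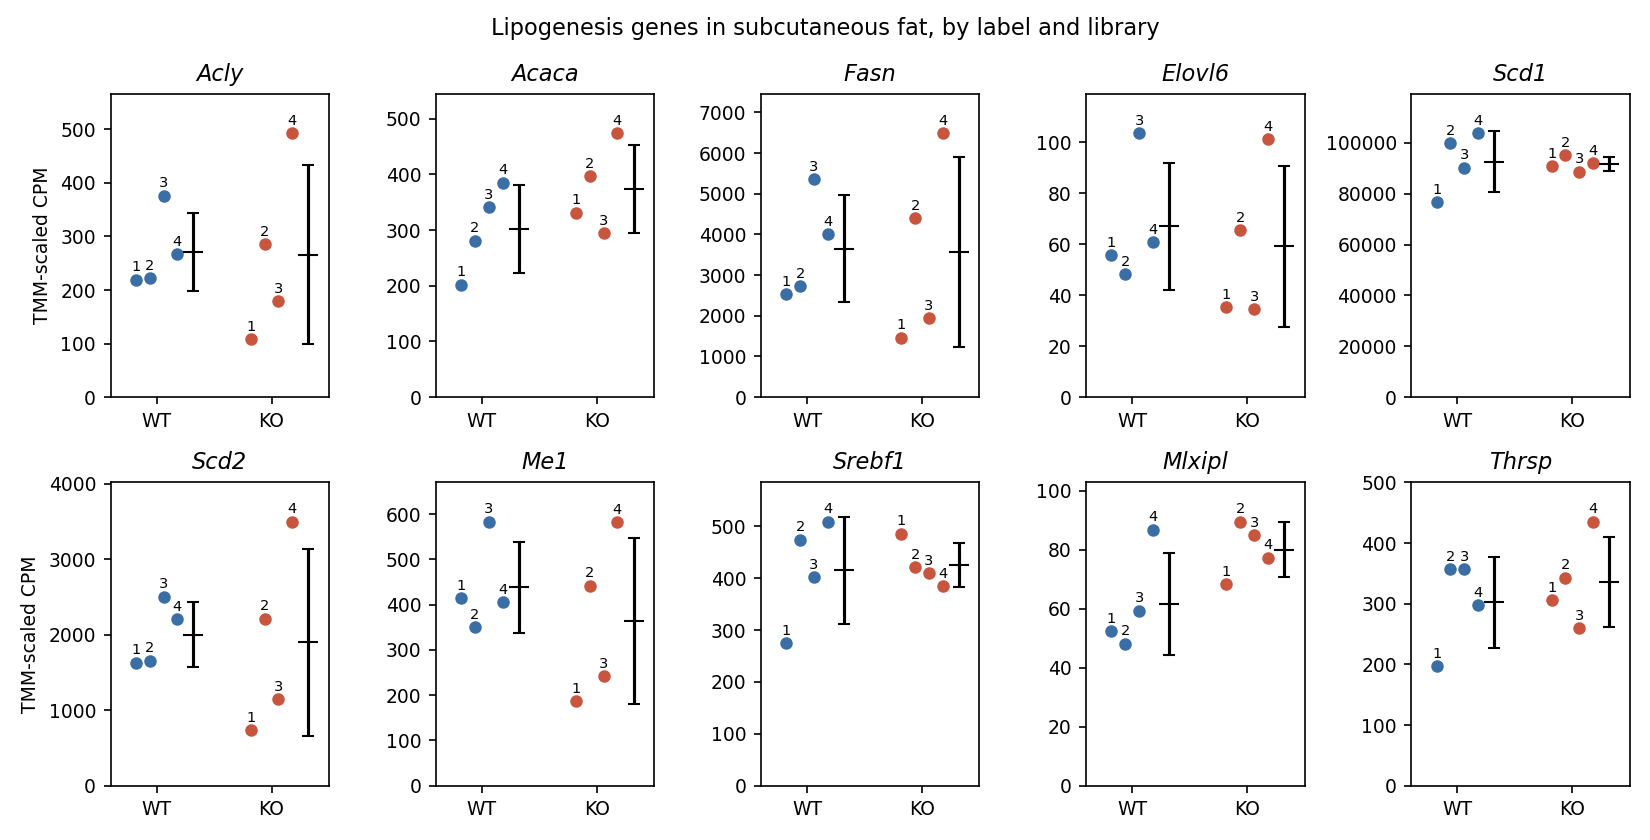
TMM-scaled CPM of each of the 10 genes in the 4 WT and 4 KO libraries; each point is a library with its replicate number, and the black bar is the mean with SD. In Fasn, Acly, Scd2, Elovl6 and Me1 the KO libraries run from the bottom to near or above the top of the WT libraries, while Scd1 spans 76732 to 103830 CPM.

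The start regions of these enzymes other than Scd2 are shown because the genes moved together over the libraries. RefSeq windows (build GRCm38.p6) ran from 250 bases before to 50 bases after an annotated start. Matching by symbol gave none for Scd1 and Scd2. For the other 8 of the 10 genes it gave 12 windows in all. Each was searched on both strands for an E-box (CACGTG), an NF-Y box (CCAAT), an Sp1 box (GGGCGG) and a sterol element (TCACNCCAC), and letters of a match are in capitals. The windows of Fasn (chr11:120824498-120824797, minus strand), Acly (chr11:100527951-100528250, minus strand), Elovl6 (chr3:129532136-129532435, plus strand) and Me1 (chr9:86695865-86696164, minus strand, the more upstream of 2 starts) are given 5′ to 3′.
Fasn: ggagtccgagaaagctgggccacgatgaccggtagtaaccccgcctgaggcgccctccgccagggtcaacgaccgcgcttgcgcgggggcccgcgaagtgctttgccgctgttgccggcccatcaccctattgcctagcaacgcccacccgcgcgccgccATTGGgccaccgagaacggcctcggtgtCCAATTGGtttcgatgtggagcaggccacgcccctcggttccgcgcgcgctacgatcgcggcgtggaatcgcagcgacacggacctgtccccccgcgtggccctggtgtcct
Acly: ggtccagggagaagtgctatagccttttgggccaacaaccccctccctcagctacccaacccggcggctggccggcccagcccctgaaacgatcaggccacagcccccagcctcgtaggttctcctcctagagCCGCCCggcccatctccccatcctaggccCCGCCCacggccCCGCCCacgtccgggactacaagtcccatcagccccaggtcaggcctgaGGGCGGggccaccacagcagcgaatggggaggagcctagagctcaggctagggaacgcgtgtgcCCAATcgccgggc
Elovl6: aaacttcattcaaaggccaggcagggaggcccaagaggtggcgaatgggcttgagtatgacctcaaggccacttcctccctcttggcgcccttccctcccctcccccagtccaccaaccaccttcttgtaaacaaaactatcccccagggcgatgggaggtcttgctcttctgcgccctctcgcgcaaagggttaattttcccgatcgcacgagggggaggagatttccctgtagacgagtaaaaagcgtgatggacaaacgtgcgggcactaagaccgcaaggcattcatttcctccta
Me1: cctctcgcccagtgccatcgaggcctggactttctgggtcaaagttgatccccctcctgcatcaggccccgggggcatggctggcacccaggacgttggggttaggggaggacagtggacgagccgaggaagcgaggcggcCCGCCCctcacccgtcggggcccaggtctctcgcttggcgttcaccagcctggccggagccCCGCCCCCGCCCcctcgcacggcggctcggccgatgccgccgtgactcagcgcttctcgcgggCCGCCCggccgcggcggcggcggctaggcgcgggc

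The Fasn window held 3 NF-Y boxes, starting 90, 62 and 59 bases before the start site, of which the last pair share bases. The Acly window held 1 NF-Y box and 4 Sp1 boxes. The upstream Me1 window held 4 Sp1 boxes, and the Elovl6 window held no match to any of the 4 motifs. Of all 32851 windows of this length, 37.4% held an NF-Y box, 35.7% an Sp1 box, 7.15% an E-box and 1.24% the sterol element, so that a match to either of the first pair is common. Across the 12 windows of the lipogenesis genes, NF-Y boxes were in 7, Sp1 boxes in 5, and the E-box and the sterol element in 1 each, both of these in windows of Mlxipl. Thrsp, which followed Fasn less closely, held 2 NF-Y boxes.
Thrsp: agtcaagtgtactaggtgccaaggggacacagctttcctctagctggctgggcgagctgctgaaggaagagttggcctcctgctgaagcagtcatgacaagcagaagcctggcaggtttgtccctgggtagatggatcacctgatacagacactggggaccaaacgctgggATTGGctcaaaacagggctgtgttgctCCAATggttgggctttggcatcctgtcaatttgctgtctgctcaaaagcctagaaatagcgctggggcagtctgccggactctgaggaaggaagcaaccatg
The Thrsp window is chr7:97417501-97417800 on the minus strand. A match is a description of the letters, not of binding.

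Agreement between the enzymes was close. Pearson's r with Fasn over the 8 libraries, on log2(CPM + 0.5), was 0.978 for Scd2, 0.973 for Acly, 0.95 for Elovl6 and 0.945 for Me1. The exact permutation p adjusted over the 9 relations (Benjamini-Hochberg) was 0.000112 for Scd2 and Acly, 0.00162 for Elovl6 and 0.00104 for Me1, from raw values of 2.48e-05, 2.48e-05, 0.000719 and 0.000347; 2.48e-05 is the smallest that the pairings of 8 libraries can give. Spearman's rho was 1.0 for Scd2 and Acly (exact permutation p = 4.96e-05, adjusted p = 0.000223), 0.929 for Elovl6 (p = 0.00223, adjusted p = 0.0067) and 0.905 for Me1 (p = 0.00456, adjusted p = 0.0103). Without KO1 and KO4, the libraries farthest from the median of Fasn, r stayed at 0.978, 0.974, 0.924 and 0.885 for Scd2, Acly, Elovl6 and Me1. Centred on the mean of each label, it was 0.98, 0.972, 0.952 and 0.965, so that the relation was present among libraries of the same label. All pairs within these 5 enzymes had r of at least 0.913.

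A high correlation with Fasn was uncommon among other genes. Of 14555 other genes tested, 64, or 0.44%, had an r of at least 0.9. In the ranking by r, Scd2 was at place 2, Acly at 5, Elovl6 at 16 and Me1 at 20. A change of 1 log2 unit in Fasn went with 0.92 units in Scd2, 0.87 in Acly, 0.76 in Elovl6 and 0.73 in Me1. That change went with 0.30 units in Acaca, 0.28 in Thrsp and 0.046 in Scd1.

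**Figure D2:**
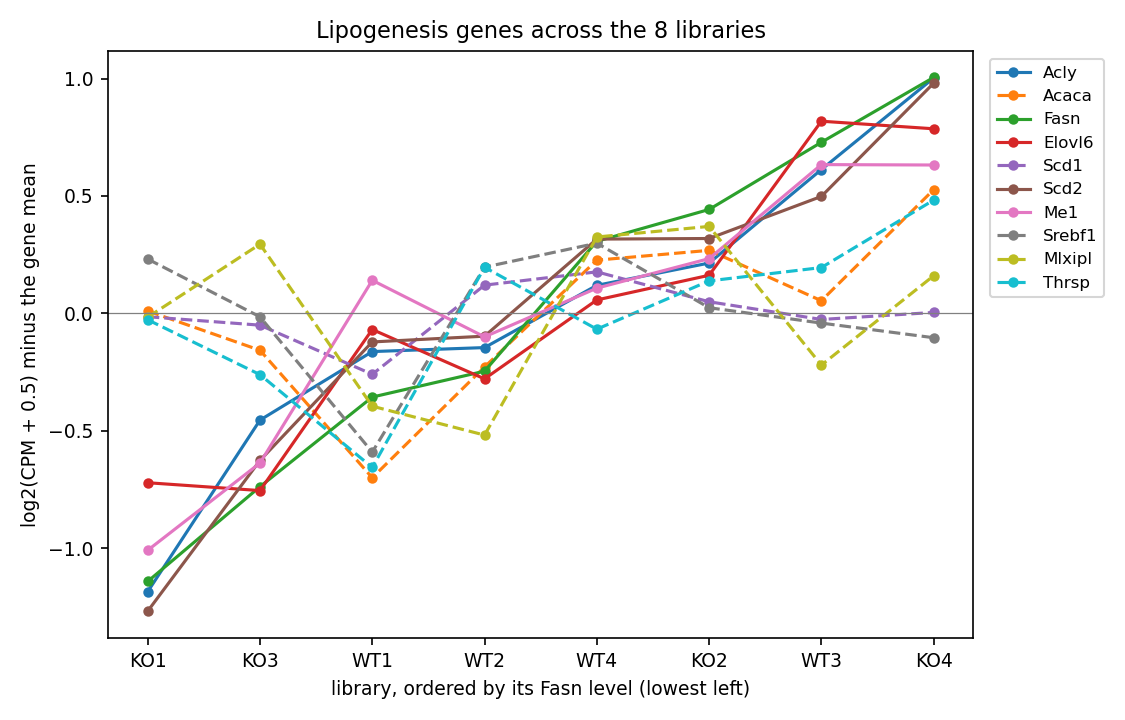
Log2(CPM + 0.5) of each gene minus its mean over the 8 libraries (vertical axis), with the libraries ordered by Fasn from the lowest (KO1) to the highest (KO4). Solid lines are Fasn, Acly, Scd2, Elovl6 and Me1, which climb together from KO1 to KO4; dashed lines are the other 5 genes, of which Scd1 has the smallest range.

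Acaca and Thrsp followed Fasn less closely. Centred on the mean of each label, their r with Fasn was 0.772 and 0.671 (permutation adjusted p = 0.052 and 0.107). Acaca, which makes the malonyl-CoA that Fasn uses, had 202, 281, 341 and 385 CPM in WT1 to WT4 and 331, 396, 295 and 474 CPM in KO1 to KO4. Its highest value was in KO4, as for Fasn, but its lowest was in WT1 and not in KO1. Its r with Fasn was 0.603 (exact permutation p = 0.11, adjusted p = 0.17; rho 0.714, p = 0.0576, adjusted p = 0.104), and 0.662 without KO1 and KO4. Thrsp had 197.5, 357, 357 and 297 CPM in WT1 to WT4 and 306, 343, 259.9 and 435 CPM in KO1 to KO4, again lowest in WT1 and highest in KO4. Its r with Fasn was 0.6 (exact permutation p = 0.113, adjusted p = 0.17; rho 0.667, p = 0.0831, adjusted p = 0.125), and 0.611 without KO1 and KO4.

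For Scd1 and the transcription factors no relation with Fasn passed the threshold. Centred on the mean of each label, r with Fasn was 0.262 for Scd1, -0.0659 for Srebf1 and 0.37 for Mlxipl (permutation adjusted p = 0.622, 0.886 and 0.483). Scd1 had 76732, 99833, 90216 and 103830.1 CPM in WT1 to WT4 and 90947, 95058, 88713 and 92108 CPM in KO1 to KO4. Its share of a library's reads was 7.64% to 10.3%, and it was close to level in the KO libraries that differed most in Fasn. Its r with Fasn was 0.262 (exact permutation p = 0.552, adjusted p = 0.71; rho 0.333, p = 0.428, adjusted p = 0.52), and 0.366 without KO1 and KO4. Per length of exon, Scd1 was between 29.4 times (KO4) and 138 times (KO1) the level of Scd2 in the same library. The paralogues Scd3 and Scd4 had 490 to 699 and 204.5 to 354 CPM, each lowest in WT1 and highest in WT4, as Scd1 was. The Scd genes are near copies in part: 2.97% of the 50-base words of the Scd1 transcripts also occur in Scd2 and 3.42% in Scd3. The sources used here do not say how reads shared between copies were counted, so the lower counts of Scd2, Scd3 and Scd4 are uncertain where Scd1 reads could enter them.

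Srebf1 had 275, 474, 402 and 509 CPM in WT1 to WT4 and 486, 421, 409.6 and 385 CPM in KO1 to KO4. Its lowest library was WT1 and its highest WT4, and in KO1, where Fasn was lowest, it was second only to WT4. Its r with Fasn was -0.0849 (exact permutation p = 0.858, adjusted p = 0.858; rho -0.31, p = 0.462, adjusted p = 0.52) and turned to 0.289 without KO1 and KO4. The counts do not separate the SREBP-1a and SREBP-1c transcripts. Mlxipl, the least abundant regulator, had 52.5, 48.2, 59.3 and 86.8 CPM in WT1 to WT4 and 68.4, 89.6, 84.99 and 77.4 CPM in KO1 to KO4. Its r with Fasn was 0.186 (exact permutation p = 0.648, adjusted p = 0.729; rho 0.19, p = 0.665, adjusted p = 0.665), and 0.142 without KO1 and KO4. With 8 libraries, a p above the threshold does not show that the genes were unrelated.

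Over all 45 pairs of the 10 genes, 11 had an adjusted exact permutation p under 0.05 for r. These were the 10 pairs among Fasn, Acly, Scd2, Elovl6 and Me1, and the pair of Scd1 and Srebf1 (r 0.901, exact permutation p = 0.00665, adjusted p = 0.0272). The latter rested on few libraries: rho was 0.714 (p = 0.0576, adjusted p = 0.185), and r was 0.452 without the 2 libraries farthest from the median of Scd1. Acaca and Thrsp had r 0.825 (exact permutation p = 0.0149, adjusted p = 0.0557; rho 0.524, p = 0.197, adjusted p = 0.402), which was 0.129 without the 2 libraries farthest from the median of Acaca.

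**Figure D3:**
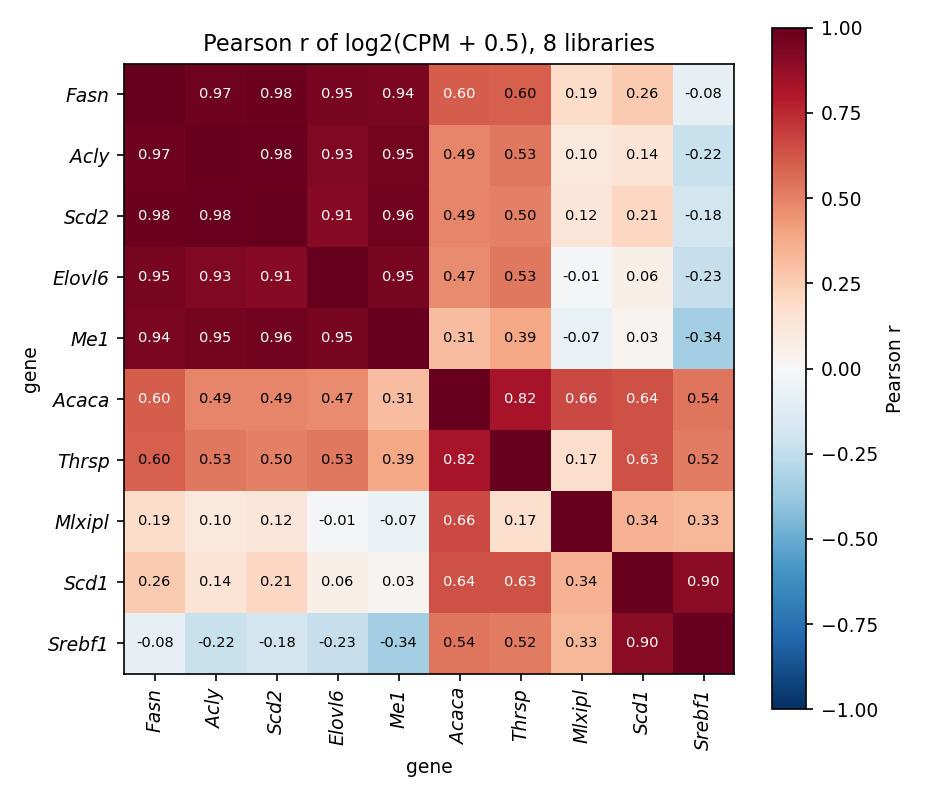
Pearson's r between each pair of the 10 genes (rows and columns) over the 8 libraries, coloured from -1 to 1. Fasn, Acly, Scd2, Elovl6 and Me1 form a block with every r at 0.913 or above, and the pair of Scd1 and Srebf1 stands at 0.901.

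The spread between mice of one label was large for the same 5 enzymes. The SD of log2(CPM + 0.5) around the label means was 0.79 for Fasn, 0.74 for Scd2, 0.71 for Acly, 0.63 for Elovl6 and 0.58 for Me1, where the median over all 14556 genes tested was 0.26. These values were above those of 97.8%, 97.1%, 96.7%, 95.3% and 93.7% of the genes tested. Among the 33 genes within 2 times the mean CPM of Fasn, Fasn had the highest SD. Acaca and Thrsp, each at 0.36, Srebf1 at 0.30 and Mlxipl at 0.29 lay between the 59.6th and the 74.8th percentile. Among genes within 2 times their own mean CPM they stood higher, at percentile 86.0 for Acaca, 86.4 for Thrsp, 76.9 for Srebf1 and 80.6 for Mlxipl. Scd1 had an SD of 0.14, at percentile 11.5 of the genes tested, and 0.074 without WT1. No other gene tested lay within 2 times the mean CPM of Scd1, so its SD could not be set against genes of like abundance. Without WT1 the SD of Srebf1 was 0.16, and without WT4 that of Mlxipl was 0.16.

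**Figure D4:**
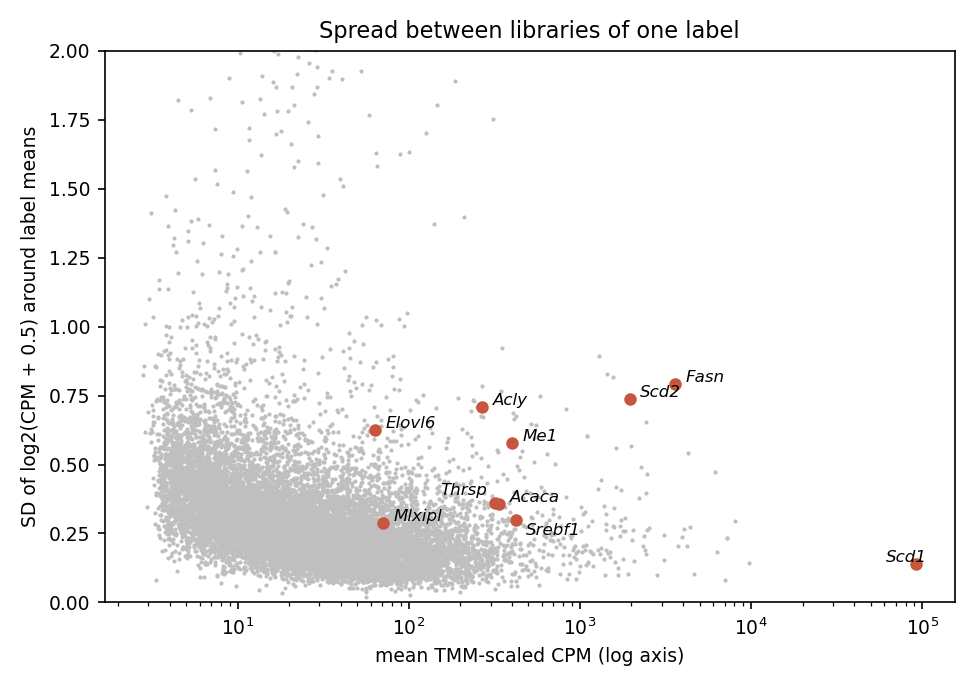
SD of log2(CPM + 0.5) around the label means (vertical axis) against mean CPM (log axis) for all genes tested in grey and the 10 lipogenesis genes in red. Fasn, Scd2, Acly, Elovl6 and Me1 lie between 0.58 and 0.79, above most genes of like abundance. Acaca, Thrsp, Srebf1 and Mlxipl lie between 0.29 and 0.36, also above most genes of like abundance, and Scd1 lies at 0.14. The 23 genes above an SD of 2 are not drawn.

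Per length of exon, the order of the levels was led by Scd1 at 47851 ± 5155 on the TPM scale (SD over 8 libraries). Scd2 followed at 915 ± 420.0 and Fasn at 850.1 ± 435, then Thrsp at 370.4 ± 87.0, Me1 at 267 ± 103, Srebf1 at 189 ± 33.5 and Acly at 131 ± 60.9. Acaca stood at 50.6 ± 13.6, Mlxipl at 32.7 ± 8.59 and Elovl6 at 25.2 ± 11.5. Only Scd1 and Scd2 were neighbours in this order whose ranges did not meet, with 39016 as the lowest value of Scd1 and 1616 as the highest of Scd2. The length of the longest transcript in place of all exons put Acaca at 77.5. It also put Fasn, at 790.6, before Scd2, at 783.0.

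The comparison of the labels asks whether deletion of protein kinase D1 in adipocytes goes with another level of these transcripts. No member passed. Of the 10 genes, 0 had an adjusted p under 0.05 in edgeR's quasi-likelihood test, against 0.0% of the 14556 genes tested. With DESeq2 it was 0 of the 10, against 0.247% of the genes tested, and with edgeR's likelihood ratio test 0 of the 10, against 0.398%. At an unadjusted p under 0.05 there was 1 member, Mlxipl, with a positive log2 fold change, against 4.49% of all genes tested, 2.71% with a positive one. With DESeq2 there were 0 members at that level, against 3.36% of the genes tested. For all 10 genes the libraries of the labels overlapped, where 2.92% of the genes tested had groups that did not overlap. The log2 fold changes were positive for 4 and negative for 6 members, with a median of -0.021, and the median over all genes tested was 0.00041.

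Mlxipl had the largest difference, with 61.7 ± 17.4 CPM in WT and 80.1 ± 9.27 CPM in KO (SD, n = 4 each) and a log2 fold change of 0.38 ± 0.17 (SE; 95% interval 0.0036 to 0.75, edgeR quasi-likelihood adjusted p = 0.998). The value was positive with each library left out, between 0.27 and 0.58. Acaca, at 302 ± 79.2 and 374 ± 78.7 CPM, had a log2 fold change of 0.31 ± 0.20 (SE; 95% interval -0.13 to 0.74), between 0.16 (without WT1) and 0.44 (without WT4) with a library left out. Thrsp had 0.15 ± 0.20 (interval -0.28 to 0.59), which was -0.0049 without WT1. Srebf1 had 0.035 ± 0.18 (interval -0.34 to 0.41) and Scd1 -0.015 ± 0.16 (interval -0.37 to 0.34). The adjusted p of each of these was 0.998 in edgeR's quasi-likelihood test.

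The variable enzymes had intervals over 1.5 log2 units wide. Fasn, at 3655 ± 1312 CPM in WT and 3574 ± 2332 CPM in KO, had a log2 fold change of -0.032 ± 0.50 (SE; 95% interval -1.20 to 1.14). Acly had -0.026 ± 0.46 (interval -1.10 to 1.05), Scd2 -0.075 ± 0.46 (interval -1.13 to 0.98), Elovl6 -0.18 ± 0.41 (interval -1.14 to 0.77) and Me1 -0.27 ± 0.35 (interval -1.07 to 0.53). A change of 2-fold in either direction lies inside the intervals of Fasn and Acly, so the mice did not resolve one, at a depth of at least 293 reads per library in both genes. For Scd2, Elovl6 and Me1 the interval reaches a 2-fold lower but not a 2-fold higher level. Without KO1 the value of Fasn was 0.23, and without KO4 it was -0.49. In the authors' deposited table, where 2.42% of 18022 genes have an adjusted p under 0.05, Mlxipl has an adjusted p of 0.991 and each of the other 9 an adjusted p of 1.0.

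**Figure D5:**
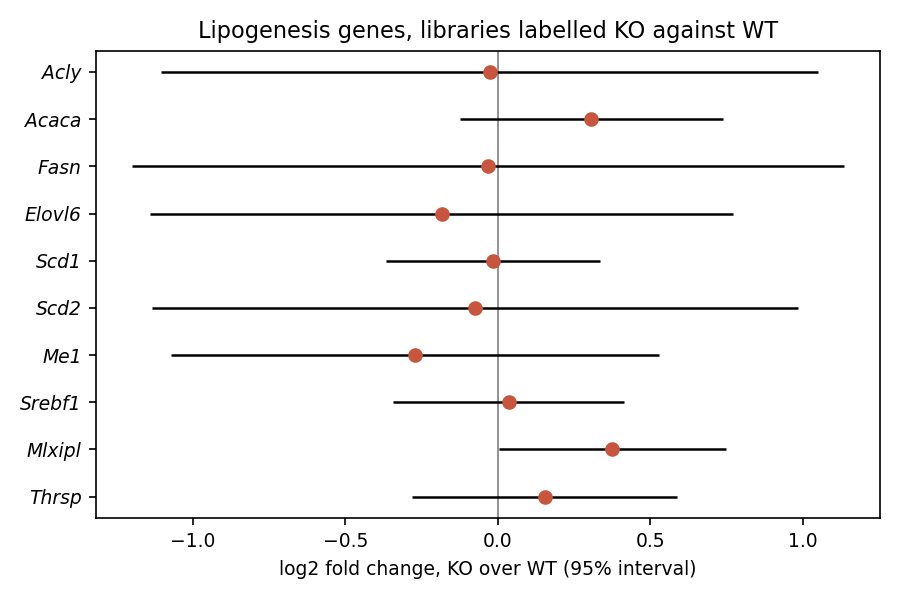
Log2 fold change of each gene, KO over WT, with its 95% interval from edgeR's quasi-likelihood fit to all 8 libraries. Intervals are widest for Fasn (-1.20 to 1.14) and narrowest for Scd1 (-0.37 to 0.34), and that of Mlxipl starts at 0.0036.

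Genes that supply lipogenesis with carbon and NADPH were in part members of the same pattern. Of 13 such genes, 0 passed between the labels, 2 had positive and 11 negative log2 fold changes, and the median was -0.089; Aacs had 0.17 ± 0.16 (SE) and Taldo1 -0.13 ± 0.14. Across libraries, 10 of the 13 had a positive r with Fasn (median 0.422, against -0.00176 over all genes tested). Of these relations, 2 passed when adjusted over the 69 genes of the 5 lists. Pgd, an NADPH-forming enzyme of the pentose phosphate pathway, had 211, 203, 258.4 and 240.0 CPM in WT1 to WT4 and 144, 245, 183.5 and 293 CPM in KO1 to KO4. Its r was 0.978 (exact permutation p = 7.44e-05, adjusted p = 0.00513; rho 0.976, adjusted p = 0.0137). Acss2, which makes acetyl-CoA from acetate, had 208.5, 308, 441 and 354 CPM in WT1 to WT4 and 145, 380.0, 225 and 705 CPM in KO1 to KO4. Its r was 0.961 (exact permutation p = 0.000174, adjusted p = 0.00599; rho 0.976, adjusted p = 0.0137). Without KO1 and KO4 these were 0.985 and 0.926. Slc25a1, the mitochondrial citrate carrier, had an r of 0.817 (exact permutation p = 0.0122, adjusted p = 0.0934; rho 0.905, adjusted p = 0.0787). G6pdx, the first enzyme of the pentose phosphate pathway, had 0.628 (exact permutation adjusted p = 0.289) and -0.0344 without KO1 and KO4. Of the genes in this paragraph and the next lists, those with values for r were named after the values were seen.

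Among 15 tested genes of other elongation and desaturation steps, 0 passed between the labels, with 7 positive and 8 negative and a median of -0.043. Fads2, the delta-6 desaturase of polyunsaturated fatty acids, had -0.74 ± 0.38 (SE, unadjusted p = 0.0797, edgeR adjusted p = 0.998) on 21 to 94 reads, and Acsl5 -0.21 ± 0.14. In this list 0 of 15 relations with Fasn passed, with a median r of 0.3 and 0.865 for Hsd17b12 (exact permutation adjusted p = 0.0751), an enzyme of the elongation cycle. Elovl3 and Elovl7 lay under the count filter, with at most 10 and 11 reads in a library.

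Of 17 regulators and partners, 0 passed between the labels, with 11 positive, 6 negative and a median of 0.020. Acacb, the acetyl-CoA carboxylase of the mitochondrial surface, had 0.40 ± 0.20 (SE, unadjusted p = 0.0657) and Nr1h2, a liver X receptor, 0.18 ± 0.17. Only Insig1, a protein that helps to hold SREBPs in the endoplasmic reticulum, passed for its relation with Fasn. It had 398, 396, 724 and 665 CPM in WT1 to WT4 and 270.0, 573, 431 and 984 CPM in KO1 to KO4. Its r was 0.953 (exact permutation p = 0.000893, adjusted p = 0.0205; rho 0.881, adjusted p = 0.0999), and the adjusted p was 0.0776 without KO1 and 0.0913 without KO4. The median r of the list was -0.0165.

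Targets of SREBP-1 and ChREBP outside fatty acid synthesis numbered 11 tested, with 0 past the threshold between the labels, 7 positive, 4 negative and a median of 0.047. Gpam, which begins triglyceride synthesis, had 0.32 ± 0.15 (SE, unadjusted p = 0.0508) and Tkfc -0.35 ± 0.18. With Fasn, Dgat2 and Agpat2, enzymes of triglyceride synthesis, had r 0.862 and 0.854, and Txnip, a ChREBP target, had -0.796 (exact permutation adjusted p = 0.0751, 0.0751 and 0.118), so 0 of 11 passed. Of 13 genes known to rise in fasted fat, 0 passed between the labels, with 7 positive and 6 negative and a median of 0.057. Ddit4, a stress-induced inhibitor of mTORC1, had -0.65 ± 0.21 (SE, unadjusted p = 0.0106, edgeR adjusted p = 0.998). In that list 3 of 13 genes had a positive r with Fasn, and the median r was -0.0982. Irs2, Pdk4 and Angptl4 had r of -0.778, -0.444 and -0.264, and none of these passed (exact permutation adjusted p = 0.118, 0.546 and 0.866). How many of the 13 relations passed is not reported here.

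The summed adipocyte markers ran opposite to Fasn, in a relation that passed the adjusted threshold by r but not by rho. The sum of the 10 markers had an r of -0.895 with Fasn (exact permutation p = 0.0032, adjusted over 11 marker sums 0.0352; rho -0.857, p = 0.0107, adjusted p = 0.118), and -0.814 without KO1 and KO4. The adjusted p passed only without WT2 when 1 library was left out (0.0306) and was up to 0.215 otherwise (without KO1). Of the 10 markers, 7 had a negative r and 3 a positive one. Lep, for example, had 970.8 CPM in KO1 and 2523.4 CPM in KO4. The largest part of the sum in each library was Fabp4, at 5105.8 to 7421.0 CPM, with 7421.0 CPM in KO1 and 6154.4 CPM in KO4. Cfd differed more between these libraries, with 3893.3 CPM in KO1 and 1644.8 CPM in KO4. Pnpla2, which is also in the list of SREBP-1 and ChREBP targets, had 1965.8 CPM in KO1 and 943.5 CPM in KO4. The sums were 18646, 20513, 17833 and 17618 CPM in WT1 to WT4 and 22393, 16497, 20592 and 17120.3 CPM in KO1 to KO4. The other 10 marker sums had adjusted p of 0.29 or more, the lowest for progenitor and fibroblast markers (r 0.694) and nerve markers (r -0.627). The skeletal muscle sum had r 0.0484. The part of cell make-up in the pattern of the enzymes was not tested.

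The genes whose profile was most like the mean of the 10 standardized lipogenesis genes, over 8 libraries and with no test, were Qpctl (r 0.976), Trub2 (0.963), Psmd6 (0.961), 4930471I20Rik (0.941), Gnptab, Chic2 and Rcc1 (0.931 each), Rab32 (0.93), Acss2 (0.929) and Zc3h12b (0.928). Of these, 1 is in the lists of lipogenesis genes, Acss2. That mean mixes genes that did not move together, so the ranking was also made against Fasn alone, a choice made after the data were seen. With the 10 lipogenesis genes left out, unlike in the places given above, it was led by Setd8 (r 0.98), Pgd (0.978), Vac14 (0.977) and Sqle (0.972). Sqle, squalene epoxidase of cholesterol synthesis, ran from 11.04 to 34.23 CPM. At place 7 was Mir5114 (r 0.958), whose 61 bases lie inside an exon of Scd2 on the same strand, so that its 1527 reads cannot be told apart from reads of Scd2. Srebf1 shares 109 exon bases with Rai1 on the opposite strand and Me1 30 with A330041J22Rik, and the library kit does not mark strand.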

How the data were processed

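Poly(A) RNA was sequenced, per the labels' protocols. Build mm9, Bowtie2, FastQC and edgeR appear in the submitters' processing notes. The sources used here do not name the counter or the annotation. Raw counts of reads per gene were deposited, and the authors' own table gives log2 fold changes and p-values, per the file headers. Columns were matched to samples by mouse label. Low genes had been left out of the table (smallest total 8 reads).

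Counts were tested with edgeR 4.0.16 (R 4.3.3): filterByExpr (14556 genes), TMM, a robust quasi-likelihood F test with the label as the only term, and Benjamini-Hochberg adjustment over all genes at 0.05. SE was obtained as the log2 fold change divided by the square root of F. CPM use the same TMM scaling. Correlations use log2(CPM + 0.5) with exact two-sided permutations (Python 3.11.15, scipy 1.17.1). Levels per length use the exons of GENCODE M21 (build GRCm38), for 16976 genes. The tests were checked on simulated data. Between libraries of a label, chi-square was at least 4.446 per gene, so none was counted as a copy. Mice are separate per the labels. The precision of a value is limited by the number of mice, and for genes with few reads also by the reads.

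The members and the lists were chosen with earlier results of these data known. Named are all 10 members, in each list genes with an unadjusted p under 0.05 or else the 2 with the smallest p, and the 10 genes most like the members. Alternatives were other scalings, filters and tests (DESeq2 1.42.0, likelihood ratio, non-robust), the replicate block, another pseudocount (5 CPM), label-centred values, and each library left out. Added after the data were seen were the 45 pairs, the relations of list genes and likeness to Fasn. A gene of the lists is not reported here.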

Additional observations from a re-analysis of the deposited data

How the results depend on the processing

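No member was called by any of the fits. Over all genes, 0 were called in the quasi-likelihood test (653 at an unadjusted p under 0.05), 36 by DESeq2, 58 by the likelihood ratio test, and between 0 and 50 with 1 library left out (50 without KO3). With the replicate number as a block, 0 were called, Fasn had a log2 fold change of -0.21, Scd2 -0.30 and Mlxipl 0.40. Same-numbered libraries had deviations with r from -0.286 to -0.14, so the numbers were not taken as pairs; other number pairs reached 0.396. With library totals only, Scd1 turned to 0.010. With 1 library left out the log2 fold changes ranged from -0.51 to 0.24 for Acly, -0.49 to 0.23 for Fasn, -0.57 to 0.11 for Elovl6, -0.096 to 0.043 for Scd1, -0.55 to 0.19 for Scd2, -0.12 to 0.15 for Srebf1 and -0.0049 to 0.26 for Thrsp. The members' relations with Fasn kept their side of the threshold in every alternative tried; r of Srebf1 turned to 0.289 without KO1 and KO4 and ranged from -0.496 to 0.167 with 1 library left out. The SD with 1 library left out ranged from 0.0736 to 0.154 for Scd1, 0.156 to 0.327 for Srebf1 and 0.162 to 0.317 for Mlxipl. The length of the longest transcript moved levels to 77.5 for Acaca, 41409.6 for Scd1, 42.8 for Mlxipl and 495 for Thrsp; the other 6 moved by less than 1 SD. The r of Insig1 and of the adipocyte sum kept their direction with each library left out. With 8 mice, a 2-fold difference between the labels in Fasn was not resolved.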
